A study of Mus musculus with 2 samples.

Results

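The receptor of RANKL and that of M-CSF, with their ligands and the adaptors next to them, were followed in mouse osteoclast cultures with and without Dnmt3a, a de novo DNA methyltransferase. The 10 genes were chosen by name, as RANK and M-CSF ligands, receptors and proximal adaptors, and were found through the RefSeq accession of each probe. These genes and the gene lists below were chosen with earlier results of these data known. The 10 genes had 16 probes in 25 spots, out of 20654 named genes on 55649 probes and 59305 spots. RNA came from 1 wild type and 1 Dnmt3a knockout culture, both from female mice of the C57BL/6 background, and each was hybridised to 1 Agilent array in a single colour (Cy3). Both cultures began as marrow cells grown in M-CSF, of which the adherent monocyte/macrophage precursors were carried on with RANKL and M-CSF together, so RANKL and M-CSF protein were supplied to both genotypes. The knockout allele, the cells that lost the gene and the number of mice behind each culture are not given in the sources used here.

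RANKL (Tnfsf11) binds its receptor RANK (Tnfrsf11a) on precursors, and RANK recruits the ubiquitin ligase Traf6, through which the kinase TAK1 (Map3k7) switches on NF-kappaB and MAP kinase signalling. Osteoprotegerin (Tnfrsf11b) is a soluble decoy that captures RANKL, and Lgr4 is another receptor of RANKL. M-CSF (Csf1) acts through its receptor tyrosine kinase Csf1r to keep the precursors alive and dividing and to make them express RANK. Together these signals turn a macrophage precursor into an osteoclast, the multinucleated cell that resorbs bone.

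Dnmt3a acts on cytosines followed by guanine (CpG), so the stretches upstream of lower members are shown, with every CpG in capitals. Among members measured on both arrays, they are the 3 with the lowest difference that have an entry in the RefSeq promoter table of build GRCm38.p6, which holds 7 of the 10 genes. Each is printed from its 5′ end and stops before the outermost annotated start of its gene. That of Tnfrsf11a is chr1:105780473-105780672 (plus strand, 200 bases, 22 CpG), that of Csf1 is chr3:107760470-107760719 (minus strand, 250 bases, 10 CpG) and that of Traf6 is chr2:101678170-101678419 (plus strand, 250 bases, 13 CpG).
Tnfrsf11a: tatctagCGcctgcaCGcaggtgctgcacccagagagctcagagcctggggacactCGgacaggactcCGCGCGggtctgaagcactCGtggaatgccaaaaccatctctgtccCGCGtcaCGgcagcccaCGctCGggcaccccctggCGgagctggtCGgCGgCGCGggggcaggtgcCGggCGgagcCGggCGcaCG
Csf1: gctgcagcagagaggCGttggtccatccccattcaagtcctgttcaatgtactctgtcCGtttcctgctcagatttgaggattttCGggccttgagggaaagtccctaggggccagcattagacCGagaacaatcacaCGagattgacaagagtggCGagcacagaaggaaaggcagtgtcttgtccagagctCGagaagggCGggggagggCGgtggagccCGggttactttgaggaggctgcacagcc
Traf6: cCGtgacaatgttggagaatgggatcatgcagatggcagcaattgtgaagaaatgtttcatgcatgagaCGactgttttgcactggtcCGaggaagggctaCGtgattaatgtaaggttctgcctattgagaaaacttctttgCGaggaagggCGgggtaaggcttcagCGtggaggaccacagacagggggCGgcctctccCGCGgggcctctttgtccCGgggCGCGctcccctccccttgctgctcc

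Over the 250 bases before the start in that table, Tnfrsf11a has 31 CpG, and 94.8% of the 32851 promoters have fewer, the median being 6. For Tnfrsf11a these bases run past the outermost annotated start of the gene, before which the printed 200 bases hold 22 CpG. The other members range from 4 CpG in Tnfsf11 to 49 in Traf3. Letters of known factor sites were searched on both strands of the same 250 bases. GAGGAA, the core bound by the myeloid factor PU.1, is in 3 of the 7 members (Lgr4, Map3k7 and Traf6) and in 23.3% of all promoters. TGGAAA (NFAT), TGACTCA or TGAGTCA (AP-1) and CATGTG (an E-box bound by MITF) are in none of the 7, and in 18.6%, 4.46% and 12.3% of all promoters. A match describes the letters only, and DNA methylation was not analysed here.

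Of 59305 non-control spots, 52.7% of the wild type and 59.7% of the knockout spots were well above background, with lowest such signals of 25.8 and 17.7. The Dnmt3a probe checks the labels as far as its transcript goes: its signal was 7042 in wild type against 1822 in the knockout (log2 difference -1.92). Differences are knockout minus wild type after each array was scaled to its 75th percentile, and the error beside a difference (SE) is the scanner software's own error of both spots. It had a median of 0.20 over all measured genes and was close to 0.20 at bright spots. A comparison with it is therefore nearly 1 fixed cut. The error covers no spread among cultures, and with 1 array per genotype no test across samples was possible. As a further yardstick, the SD of the difference between repeated spots of 1 probe had a median of 0.07 over 259 probes. All 20 listed osteoclast genes, among them Acp5 and Ctsk, were well above background on both arrays. So were 16 of 17 macrophage, 14 of 14 neutrophil and 16 of 18 stromal markers on the array, so this check does not single out osteoclasts.

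RANK itself stood out. Of the 10 genes, 8 were measured on both arrays, and Tnfrsf11a was the only one past 2-fold, at 2.30-fold lower on the knockout array. That is 1 of 8 genes lower, where the same held for 0.727% of all 13479 genes so measured, and 0 of 8 at least 2-fold higher, where 0.824% were. The decoy Tnfrsf11b, the ligand gene Csf1 and the adaptor Traf6 were lower by smaller amounts. Traf3 and the brightest probes of Csf1r and Map3k7 differed by less than the scanner error. Dimmer probes of Csf1r (0.35 and 0.50) and a dimmer one of Map3k7 (0.28) were higher by more than it, while another Map3k7 probe was at -0.15. The median over the 8 genes was -0.29 on the log2 scale, against 0.01 over all measured genes. Without the first rows of the array, where Traf6 alone drops out, it was -0.15 over 7 genes. At 1.5-fold, 3 of the 8 were lower (4.69% of all measured genes) and 0 higher (5.82%). By count, 4 of the 8 were lower by more than their error (21.3% of all measured genes) and 1 was higher by more than its error (23.7%).

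**Figure D1:**
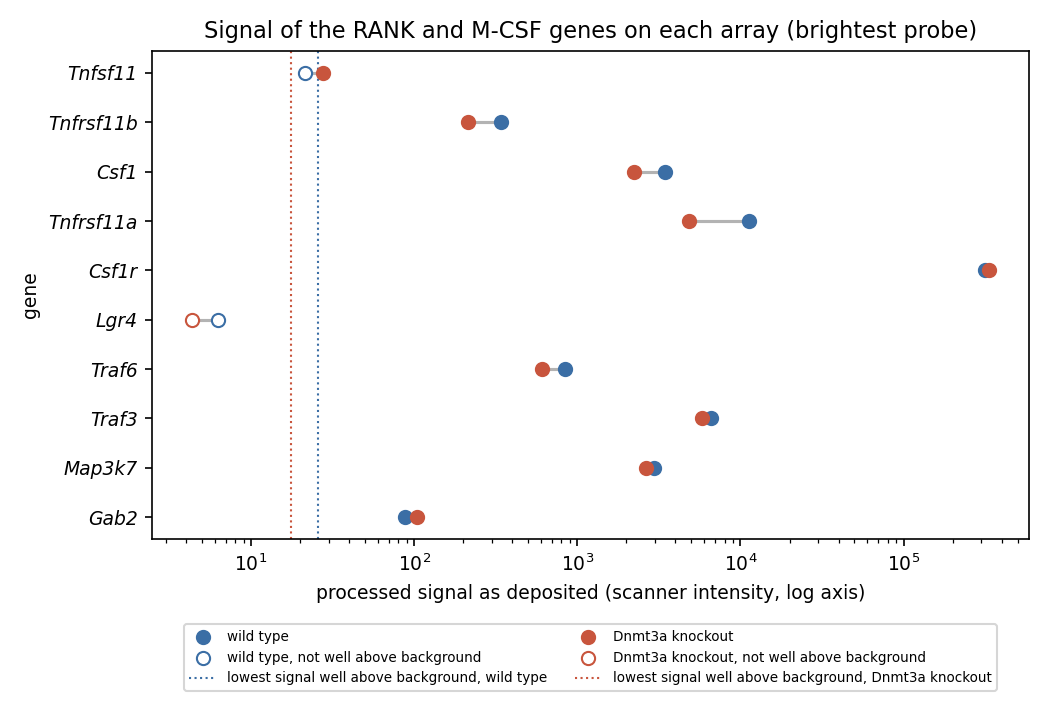
Processed signal (scanner intensity, log axis) of each gene's brightest probe on the wild type and the Dnmt3a knockout array, with open circles for signals not well above background and dotted lines at the lowest signal well above background on each array. Tnfrsf11a shows the widest gap between the arrays, from 11355 to 4846, and Lgr4 lies left of both lines.

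The RANKL gene Tnfsf11 was at the edge of detection. Its probe gave 21.5 on the wild type array, not well above background, and 27.6 on the knockout array, where it was. Counted against the wild type floor of 25.8, the knockout signal was at least 1.09-fold higher in the main scaling, but the log2 bound of 0.13 fell below 0 with median scaling (-0.07) and spike-in scaling (-0.40). The measured log2 difference of 0.39 lay within the SE of 0.47 and was -0.13 with spike-in scaling. Transcripts of RANKL were thus near the floor on both arrays.

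Tnfrsf11b, the decoy of RANKL, was dim but detected, with 339 in wild type against 214 in the knockout. The knockout was 1.55-fold lower (difference of -0.64 on the log2 scale with an SE of 0.21, from 1 probe), and 3.75% of measured genes had a lower difference. After normexp background correction the difference was -0.43.

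Csf1, the gene of M-CSF, is the best measured member because 1 of its 3 probes was spotted 10 times. Its wild type signals ran from 3299 through a median of 3452 to 3573, and its knockout signals from 2166 through 2207 to 2341. The 10 wild type spots all lay above the 10 knockout spots, though how many other repeated probes separate so was not counted. The mean log2 difference was -0.61, with an SD of 0.03 between spots and a range from -0.65 to -0.55, which is 1.52-fold lower. These spots share 1 RNA per array, so their SD shows the spread between spots only. The other probes, of the transcript NM_001113530, read 1370 against 933 (-0.52) and 1591 against 1087 (-0.52), so all 3 probes pointed downward.

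**Figure D2:**
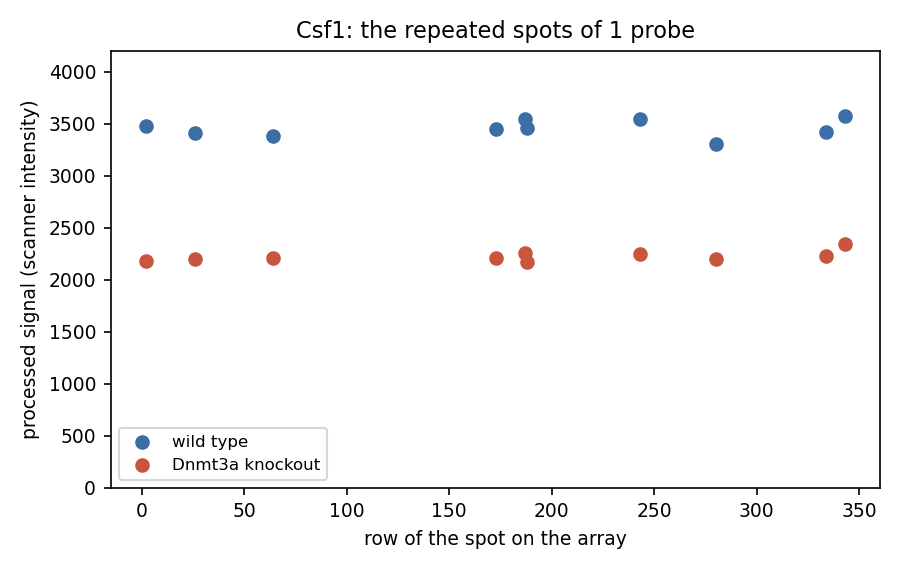
Processed signal (scanner intensity) of the 10 repeated spots of a Csf1 probe against the row of the spot on the array, for the wild type and the knockout array. The wild type spots lie between 3299 and 3573 and the knockout spots between 2166 and 2341 along the whole length of the array.

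In marrow, Tnfrsf11b and Csf1 are products of stromal cells and osteoblasts, whose markers were also lower on the knockout array. Of 18 listed markers 16 were measured, 13 of them below 0 (48.1% of all measured genes), with a median of -0.61. Their summed level, in multiples of each array's 75th percentile, was 269 in wild type against 184 in the knockout, while Lum and Runx2 were not well above background on either. Cxcl12 (-0.98, its other probe -1.30) and Alpl (-0.98) were lowest, and Lepr (0.16) and Bglap2 (0.84) highest. The Bglap2 probe was dim, with 38.2 in wild type against 67.2 in the knockout (SE 0.30). In cultures of mixed cells, fewer cells of a type and less RNA per cell cannot be told apart, and the part of stromal cells in the values of Tnfrsf11b and Csf1 was not tested.

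Among the receptors, Tnfrsf11a gave 11355 in wild type against 4846 in the knockout. The knockout signal was thus below the wild type by far more than the scanner error: the log2 difference was -1.20 with an SE of 0.20, on a single spot. Only 0.349% of measured genes had a lower difference, and its place was 48 from the lowest of 13479. Among the 2508 genes whose mean level lay within 1 log2 unit of its own, 0 had a lower difference. The 209 spots well above background within 10 rows and 10 columns of its spot had a median difference of 0.01. Around the other members' single spots this median lay between 0.01 and 0.05.

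Csf1r, the M-CSF receptor, was not lower with RANK. Its brightest probe read 317392 in wild type against 332857 in the knockout, a difference of 0.10 (SE 0.20). Its other probes read 17897 against 22409 (0.35) and 6241 against 8663 (0.50, SE 0.20). All 3 probes were higher on the knockout array, the dimmer ones by more than the error, and they disagree on the size. The direction depends on the scaling: the brightest probe was at -0.10 when the arrays were scaled to their medians and at -0.43 when they were scaled to the spike-in probes.

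Lgr4, the other RANKL receptor, was not well above background on either array, with signals of 6.24 and 4.36. The negative controls had medians of 6.06 and 4.24, so no fold is given.

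**Figure D3:**
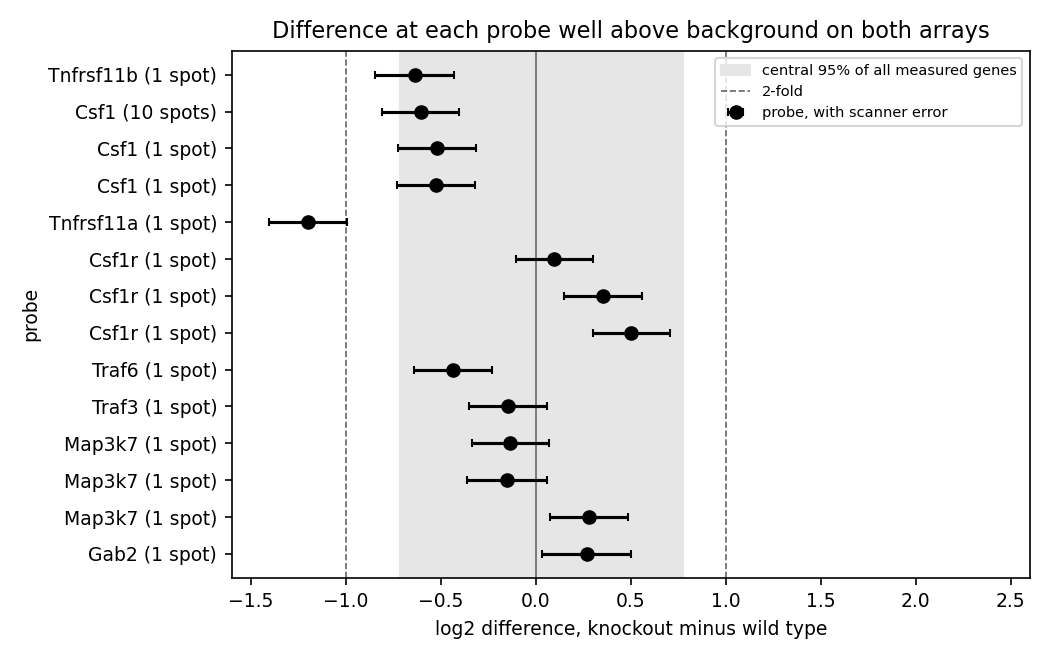
Log2 difference, knockout minus wild type, of every probe of these genes that was well above background on both arrays; bars are the scanner software's error, the shaded band holds the central 95% of all measured genes (-0.72 to 0.77) and dashed lines mark 2-fold. Tnfrsf11a lies outside the band at -1.20, and the probes of Csf1 and of Csf1r fall on opposite sides of 0.

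Of the adaptors, Traf6, the ubiquitin ligase that RANK needs for osteoclast formation, read 845 in wild type against 612 in the knockout. It was 1.35-fold lower in the knockout (difference of -0.44 with an SE of 0.20, from 1 probe), and 8.70% of measured genes had a lower difference.

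Traf3, which holds back the alternative NF-kappaB pathway, read 6560 and 5806, a difference of -0.15 (SE 0.20). Map3k7, the TAK1 kinase, read 2949 and 2633 at its brightest probe, a difference of -0.13 (SE 0.20). A further Map3k7 probe gave 299 and 264 (-0.15), and the probe of the transcript NM_172688 gave 293 and 349 (0.28, SE 0.21). The Map3k7 probes therefore pointed in both directions. Gab2, a scaffold that binds RANK and passes its signal on, was dim, with 87.8 and 104, a difference of 0.27 (SE 0.23). It lay within that error with median scaling (0.07), normexp background correction (0.07) and quantile normalization (0.23), and turned to -0.26 with spike-in scaling. The differences of Traf3 and of the brightest Map3k7 probe lie within their error, which does not show that their levels were equal.

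The likeness to Tnfrsf11a was measured over both arrays as the distance in mean level and difference, among genes outside the lists. Rai14 was nearest (9307 and 5392, difference -0.76, distance 0.45), then Slc1a5 (13230 and 7042, -0.88, distance 0.50) and Scin (12592 and 6974, -0.82, distance 0.51). All 3 differences were smaller in size than that of Tnfrsf11a. This was fixed beforehand, because 0 of the genes near its level had a lower difference.

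The genes listed as RANK signal transducers, which do not all act in the same direction, were spread about 0. All 32 were measured, 16 below 0 (48.1% of all measured genes) and 16 above (51.9%), with a median of 0.00. None passed 2-fold in either direction, where 0.727% of all measured genes were lower and 0.824% higher. By more than the scanner error, 7 were lower and 8 higher, close to the shares over all measured genes (21.3% and 23.7%). Fhl2, a LIM protein that binds Traf6, was lowest (-0.64), followed by Traf1 (-0.63). At the other end were Usp18, an interferon-induced protease of ISG15 (0.80), and Tifa, which helps Traf6 to oligomerise (0.60).

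Transducers of the M-CSF receptor tended to the other side. Of 32 genes, all measured, 22 lay above 0 and 10 below, where 51.9% of all measured genes lay above 0. The median was 0.12, and 0 passed 2-fold, where 0.824% of all measured genes were higher and 0.727% lower. The MAP kinase Mapk3 was near the high end (0.54, its other probe 0.58). Spred1, which restrains Ras signalling, was lowest (-0.72), then the ubiquitin ligase Cblb (-0.45, its other probe -0.25). With median scaling the list's median was -0.08 and with spike-in scaling -0.41, so this tendency is relative to the bulk of the genes.

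Transcription factors that act on Tnfrsf11a or Csf1r, or on the choice between macrophage and osteoclast, centred on a median of 0.11. Of 16 genes, 11 lay above 0 (51.9% of all measured genes). None passed 2-fold, where 0.824% of all measured genes were higher and 0.727% lower. With median scaling this median was -0.08. Irf8 (0.68), which restrains osteoclast formation, and Fli1 (0.58) were highest, and the AP-1 factor Fos (-0.35) and Egr1 (-0.29) lowest. Spi1, which encodes PU.1, was at -0.09 and Mitf at -0.18, both within the scanner error (SE 0.20), while the other Mitf probe was at -0.24. These were picked for mention after their values were seen.

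The osteoclast genes that RANK signalling induces were lower as a group. All 20 lay below 0, where 48.1% of measured genes did, and the median was -0.51. None passed 2-fold, where 0.727% of measured genes were that much lower. At 1.5-fold 6 were lower, where 4.69% of measured genes were, and 16 were lower by more than the scanner error (21.3%). Car2, the carbonic anhydrase that supplies protons, was lowest (-0.89), then the calcitonin receptor Calcr (-0.84). The acid phosphatase Acp5 (-0.00) and the kinase gene Src (-0.03), which is also on the list of RANK transducers, were nearest to 0. The list and Tnfrsf11a are values of the same 2 arrays, so their going together is a single comparison. This list, like the others, was fixed with earlier results of these data known. Its counts therefore describe these arrays and give no independent support.

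Markers of macrophages, the cells from which the osteoclasts form, were higher on the knockout array. Of 18 listed, 16 were measured, 14 of them above 0 (51.9% of all measured genes), with a median of 0.67 (0.15 with spike-in scaling) and a summed level of 448 in wild type against 756 in the knockout; Cd163 was not well above background on either. Marco (1.47) and Vsig4 (1.32) were at least 2-fold higher, as were 0.824% of all measured genes, and Timd4 (-0.31) and Itgam (-0.27, its other probes 0.22 and 0.32) were lowest. The part of the balance between macrophages and osteoclasts in the values of Tnfrsf11a and Csf1r was not tested.

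**Figure D4:**
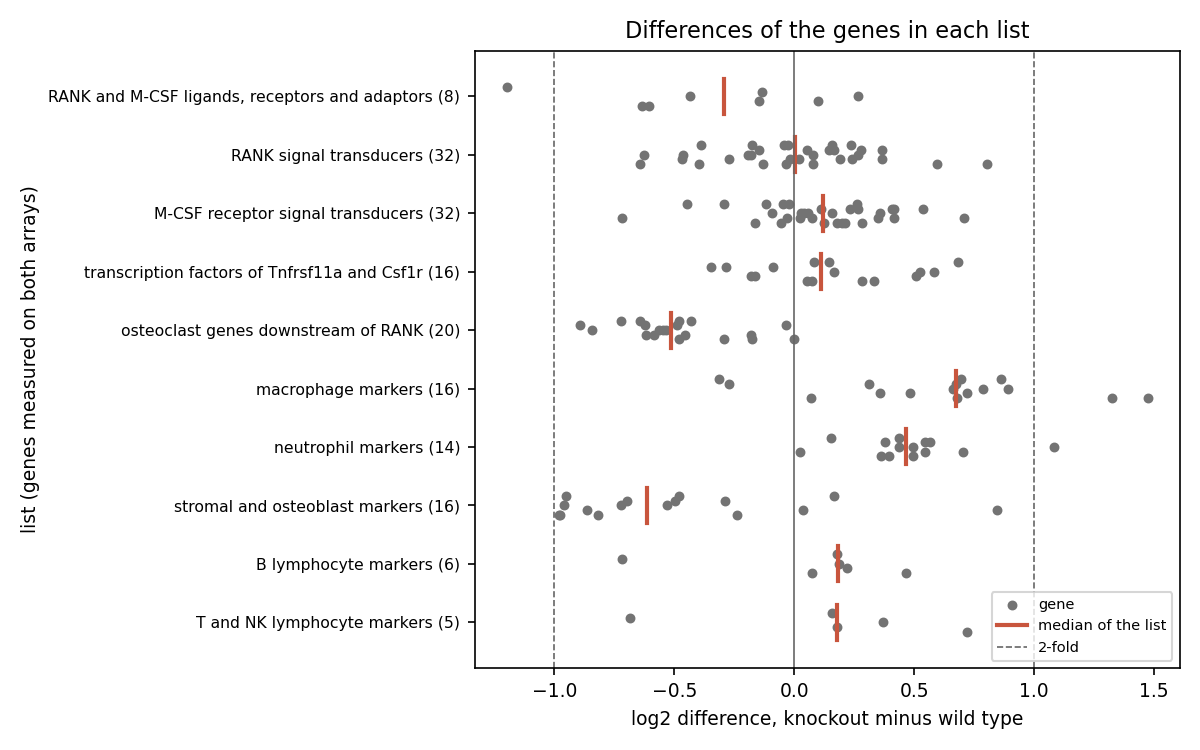
Log2 difference, knockout minus wild type, of each gene measured on both arrays (points) by list, with the median of each list as a bar and 2-fold as dashed lines. Tnfrsf11a, at -1.20, is the only gene left of the lower 2-fold line, the osteoclast genes centre on -0.51 and the macrophage markers on 0.67.

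The sign of small differences rested on the scaling. With the spike-in probes as the reference every difference was lower by 0.53, and the median of all measured genes moved from 0.01 to -0.52. The 8 spike-in probes gave shifts from -0.72 to -0.30. Tnfrsf11a was then at -1.73, and Tnfrsf11b (-1.17) and Csf1 (-1.14) also passed 2-fold. So did 7.49% of all measured genes in that direction, against 0.727% in the main scaling. Of all differences past 2-fold, 53.1% were upward in the main scaling, 39.8% after quantile normalization, 17.1% with median scaling and 1.75% with spike-in scaling. Tnfrsf11a remained past 2-fold lower in every setting tried, from -1.73 to -1.13.

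**Figure D5:**
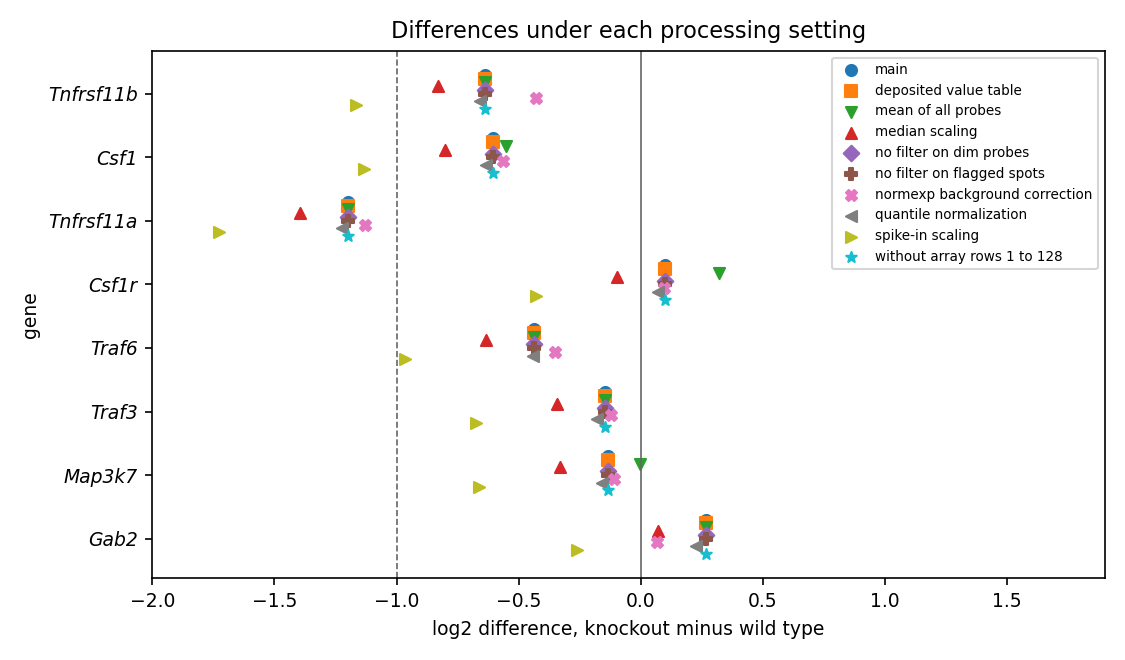
Log2 difference, knockout minus wild type, of the 8 genes measured on both arrays under each processing setting (one symbol per setting); the solid line is 0 and the dashed line 2-fold lower. Tnfrsf11a stays left of the dashed line throughout, from -1.73 to -1.13, while Csf1r and Gab2 cross 0 with spike-in scaling.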

How the data were processed

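The deposited scanner files give a processed intensity per spot. Per the file headers, Agilent Feature Extraction 10.10.1.1 made it under protocol GE1_1010_Sep10, with background subtracted and spatial trends removed, for probes placed on mm9. The submitters' processing notes name version 9.1 instead, and this was left unsettled. No normalization across the arrays was applied to this deposited intensity. The deposited value table is the same intensity times 1 factor per array (medians 1.55 and 1.54, column medians 59.6 and 66.5, linear, uncentred, factor unexplained).

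Here log2 processed signals were scaled to each array's 75th percentile over non-control spots (584 and 572). The 289 spots marked uneven or outlying on either array were left out, no spot was saturated, and spots of a probe were averaged. Accessions named 27224 of 55649 probes (48.9%) through a RefSeq table of GRCm38.p6, used for names. The brightest probe stood for a gene, and a gene counted as measured when most of its spots were well above background on both arrays. The method was run on simulated data with planted differences. These were made from the wild type array with its detection copied, so the run cannot bear on spread among cultures or on detection. Python 3.11.15, pandas 2.3.3 and limma 3.58.1 were used. The files lack the mean spot signal, so normexp (offset 50) ran on the median signal. Named genes were all members, the 2 highest and 2 lowest of each list, any list gene past 2-fold, and the 3 genes nearest to Tnfrsf11a; the values of some genes under this rule are left out here. Spi1, Mitf and Ctsk were named outside it, after their values were seen. The members and lists were chosen with earlier results of these data known. The precision is limited by the number of arrays, 1 per genotype.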

Additional observations from a re-analysis of the deposited data

How the results depend on the processing

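Spike-in scaling moved the Tnfrsf11a difference from -1.20 to -1.73, the median of the members to -0.82, the medians of the RANK transducers to -0.53, the M-CSF receptor transducers to -0.41, the transcription factors to -0.42 and the osteoclast genes to -1.04, and put 3 members and 16 of 98 pathway genes past 2-fold lower (7.49% of all measured genes). It reversed Gab2 (-0.26) and the neutrophil median (-0.0631). Median scaling put 2 pathway genes past 2-fold lower (1.65% of all) and turned the medians of the RANK transducers (-0.19), M-CSF receptor transducers (-0.08) and transcription factors (-0.08) below 0. With a 1.5-fold threshold 3 members and 9 of 98 pathway genes were lower (4.69% of all measured genes) and 4 pathway genes higher (5.82%). Each of these follows from the shift or the threshold itself. The Csf1r difference was 0.32 as the mean of its probes. Traf6 has no value without the first rows of the array, where its only spot lies, and the members' median was then -0.15. No array could be left out, since each genotype has 1. No paired analysis was possible because the groups share fewer than 2 replicate numbers. Signal over background limits Tnfsf11, Lgr4 and Gab2, and differences below about 0.20 are within the scanner error.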

Other observations

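Markers of other blood cells were in part well above background. All 14 neutrophil markers measured lay above 0 (51.9% of all measured genes), with a median of 0.47 and a summed level of 401 in wild type against 495 in the knockout. With spike-in scaling that median was -0.0631. Mmp8 (1.08; 0.824% of all measured genes were at least 2-fold higher) and Retnlg (0.70) were highest, and Csf3r, the receptor of the granulocyte factor G-CSF, was at 0.02 and Elane at 0.15. The 6 measured genes of B lymphocytes centred on 0.18, from Ebf1 (-0.72) to Cd79a (0.22) and Vpreb1 (0.46), with Pax5 and Igll1 not measured on both arrays. The 5 measured genes of T and NK lymphocytes centred on 0.18 too, from Cd5 (-0.68) and Nkg7 (0.16) to Cd4 (0.37) and Cd2 (0.72). Other probes of Nkg7 (0.52) and Cd4 (0.78) read higher, and that of Cd2 (0.76) read much the same. With the mean of all probes the T and NK median was 0.34. The T cell genes Cd3d, Cd3g and Cd8a and the NK receptor genes Klrb1c and Ncr1 were not well above background on either array. With spike-in scaling both lymphocyte medians were -0.35, and with median scaling -0.01 for B and -0.02 for T and NK cells.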
